A study of Mus musculus with 2 samples.

Results

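The clustered histone genes were the 70 of 49492 listed genes whose older mouse symbols begin with Hist1h, Hist2h, Hist3h or Hist4h. The pattern in the symbol chose them and uses no measured value, but it was set with earlier results of these data known. They comprised 6 genes of the linker histone H1, 20 of H2a, 19 of H2b, 12 of H3 and 13 of H4. In the mouse build GRCm38, 56 of them lie on chromosome 13 (the Hist1 genes), 10 on chromosome 3 (Hist2), 3 on chromosome 11 (Hist3) and 1 on chromosome 6 (Hist4h4). GENCODE annotates Hist1h2al and Hist3h2bb-ps as processed pseudogenes and Hist1h2aj as an unprocessed pseudogene. Mammary basal cells of wild type adult female mice were purified by flow sorting and grown in a 3D matrix gel for 11 to 14 days. In the group named ctrl they received no treatment, and in the group named M2 they shared the well with M2-like macrophages. According to the methods of the study, these macrophages came from bone marrow and sat in a transwell insert. Each group held 1 library, with 26912610 reads in genes for ctrl and 29413844 for M2, so there was no measure of how cultures of the same group vary.

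Nucleosomes are built from H2A, H2B, H3 and H4, and H1 binds the linker DNA between them. The clustered genes supply most new histones while DNA is replicated. Their typical mRNA has no poly(A) tail and ends shortly after a short hairpin, the stem-loop, which is held by the stem-loop binding protein Slbp. Some of these genes also make longer, polyadenylated mRNAs, among others in cells that have left the cell cycle. Replacement histones such as H3f3b are encoded elsewhere, by genes with ordinary polyadenylated mRNAs. Libraries primed on poly(A) catch little of a stem-loop mRNA. Per the labels a SMARTER mRNA kit was used, and how it primed the RNA is not given in the sources used here.

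The stem-loop was looked for in the GENCODE M21 transcripts (GRCm38) as GGCNCTTTTNAGNGC on the sense strand, where N is any base. The letters were found in 43 of the 70 members, and in 58 of all 141767 transcripts (0.0409%). Only annotated transcripts were searched, so a missing match does not show that a gene lacks a stem-loop. Unmatched members include genes with short annotated exons, such as Hist1h4k (312 bases), Hist1h2bl (381) and Hist1h3h (411). The form GGCTCTTTTCAGAGC was found in 27 members of H1, H2a, H2b and H3. The 9 H4 members with a stem-loop had GGCCCTTTTCAGGGC (7 members) or GGCCCTTTTTAGGGC (2 members). The members below rank first or second in reads within their type, except Hist4h4, which is shown for the lowest log2 fold difference, and capitals mark the stem-loop.
Hist1h1c: ccaaaaGGCTCTTTTCAGAGCcaccac
Hist3h2a: accaaaGGCTCTTTTCAGAGCcaccca
Hist2h2aa2: taaaaaGGCTCTTTTCAGAGCcaccca
Hist1h2bg: cccaaaGGCTCTTTTCAGAGCcaccca
Hist2h3c1: cacaaaGGCTCTTTTCAGAGCcaccac
Hist1h4i: cttaaaGGCCCTTTTTAGGGCcaccac
Hist4h4: cacaaaGGCCCTTTTCAGGGCccacaa
The stem-loop of Hist1h1c lies at chr13:23739512-23739526 on the plus strand, and the exon counted for this gene runs on for 841 bases after it. That of Hist3h2a lies at chr11:58955172-58955186 (plus strand), with 1644 counted bases after it, and that of Hist2h3c1 at chr3:96247327-96247341 (plus strand), with 1163. Hist4h4 has its stem-loop at chr6:136803999-136804013 (minus strand), followed by 2446 counted bases, and Hist1h4i at chr13:22040967-22040981 (minus strand), followed by 331. By contrast, only 27 bases were counted after the stem-loop of Hist1h2bg (chr13:23571843-23571857, plus strand) and 36 after that of Hist2h2aa2 (chr3:96239785-96239799, minus strand).

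The members were listed at low levels, and Hist1h1c held most of their reads. All 70 together had 9657 reads in ctrl, which is 0.0359% of the library (95% Wilson interval 0.0352 to 0.0366), and 6235 in M2, which is 0.0212% (0.0207 to 0.0217). Hist1h1c, an H1 gene (chr13:23738808-23740367), accounted for 6340 and 3805 of these reads, or 65.7% and 61.0%. At least 1 read was found for 62 members in ctrl and 60 in M2, and 28 members in each library had 3 reads or fewer. The limit set by a count of 0, taken as 3 reads, was 0.109 CPM (counts per 1000000 reads of the effective library size) in ctrl and 0.104 CPM in M2. Hist1h2aa and Hist1h2ba were at 0 in both libraries. The 31 members with fewer than 10 reads in all had 67 reads in ctrl and 66 in M2. The other 39 had at least 10 reads and were compared gene by gene.

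Levels are given as CPM per kilobase of counted exon, which allows genes of different length to be compared. Hist1h1c had a level of 148 in ctrl and 84.6 in M2. It was followed in ctrl by Hist1h2bg (30.9, and 22.8 in M2), Hist2h2aa2 (27.2 and 14.8), Hist1h2bc (21.8 and 22.1) and Hist3h2a (11.5 and 7.39). In M2 Hist1h2bg and Hist1h2bc were almost level and Hist2h2aa2 stood below them. All other members were below 5 in both libraries. H1 took 67.3% of the members' reads in ctrl and 62.5% in M2, H2b 16.0% and 20.1%, H2a 12.1% and 12.3%, H3 2.30% and 3.40%, and H4 2.24% and 1.70%.

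**Figure D1:**
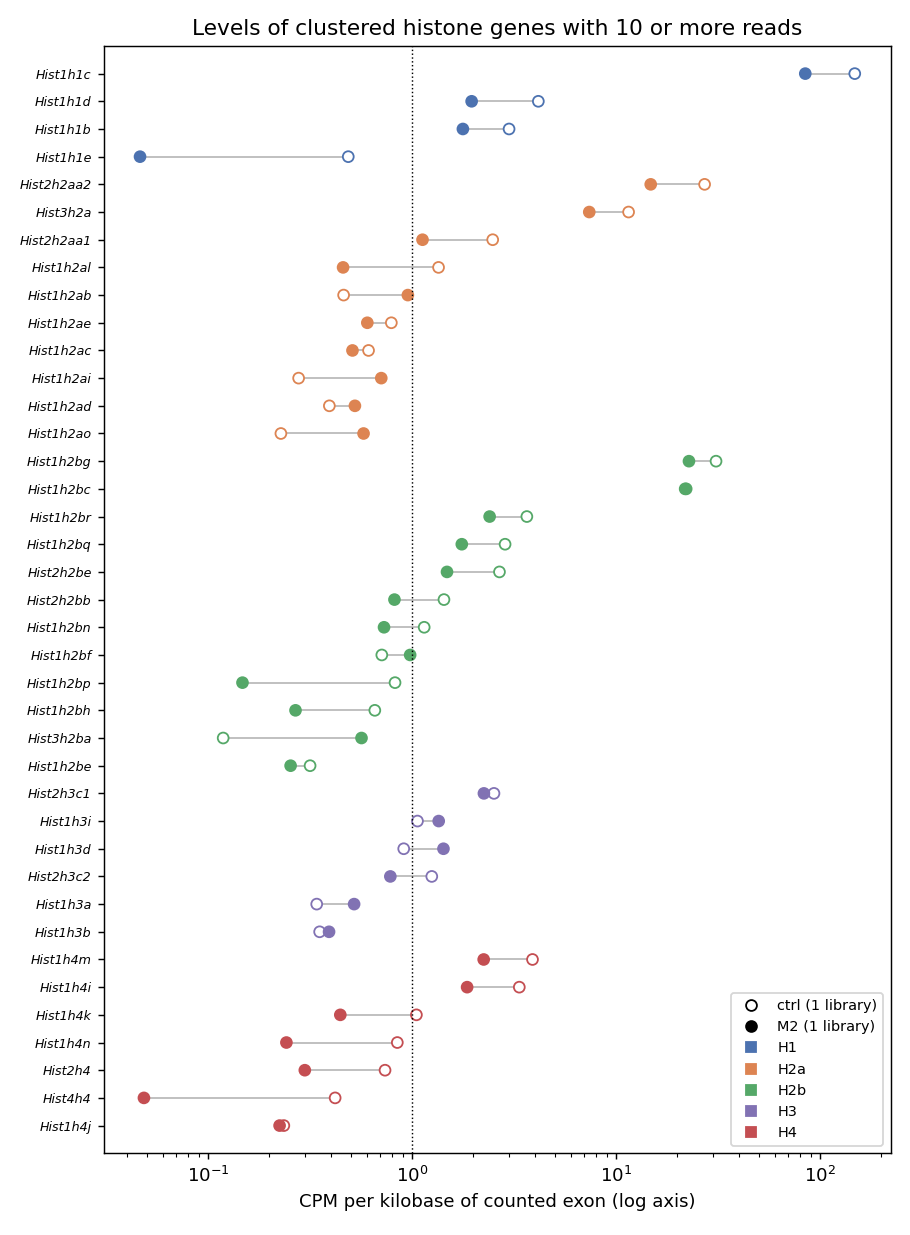
Level of each of the 39 clustered histone genes with 10 or more reads in ctrl (open circle, 1 library) and M2 (filled circle, 1 library), in CPM per kilobase of counted exon on a log axis. Genes are grouped by histone type and the dotted line marks a level of 1. Hist1h1c stands apart at 148 and 84.6, and 28 of the 39 genes have the M2 value below the ctrl value after scaling.

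The difference between M2 and ctrl was taken as the log2 fold difference of reads plus 1, scaled by effective library size. Its 95% interval covers counting error only. Summed over all members, reads were lower in M2, with a log2 ratio of -0.70 (95% interval -0.75 to -0.65). Without Hist1h1c the sums were 3317 and 2430 reads and the ratio was -0.52 (-0.59 to -0.44). In bulk RNA, fewer cells that express a gene and less RNA per cell cannot be told apart. Of the 39 members compared, 10 were at least 2-fold lower in M2 and 3 at least 2-fold higher, whereas among all 19233 genes with 10 or more reads 7.82% were lower and 9.53% higher by that margin. The median log2 fold difference of the 39 members was -0.64, and that of all genes was -0.0032, with quartiles of -0.32 and 0.35. A value below 0 was found for 28 of the 39 members and for 50.3% of all genes, and a value above 0 for 11 members and for 49.7% of all genes.

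Genes with few reads pass a 2-fold margin more often, so the members were also read against genes of like depth. Of the 16 members with 50 or more reads, 15 had a value below 0, the exception being Hist1h2bc, and their median was -0.72. The interval lay wholly below 0 for 12 of these 16, and for 31.5% of all genes of that depth. Only Hist1h1d and Hist2h2aa1 among them were at least 2-fold lower, and none was 2-fold higher. The shares of all genes of that depth were 5.52% and 7.24%. Near-identical copies such as Hist2h2aa1 and Hist2h2aa2 can share reads, so the 16 may not all be separate measurements. At any depth compared, 9 members had at least 90% of their 100-base transcript stretches in no other gene. The interval lay wholly below 0 for 6 of these 9. It did so for 5 of the 17 members with under 50%, and for 27.9% of all genes. Of the 23 members with 10 to 49 reads, 8 were at least 2-fold lower and 3 higher, against 17.8% and 19.5% of all genes of that depth. Requiring in addition an adjusted p under 0.05 in an exact binomial test, which compares these libraries and not the conditions, left 6 members lower (Hist1h1d, Hist1h1e, Hist2h2aa1, Hist1h2bp, Hist2h4 and Hist4h4) and 0 higher, against 6.55% and 8.16% of all genes. With a coefficient of variation of 0.2 assumed between cultures, edgeR's exact test left Hist4h4 alone, and with 0.4 it left none.

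**Figure D2:**
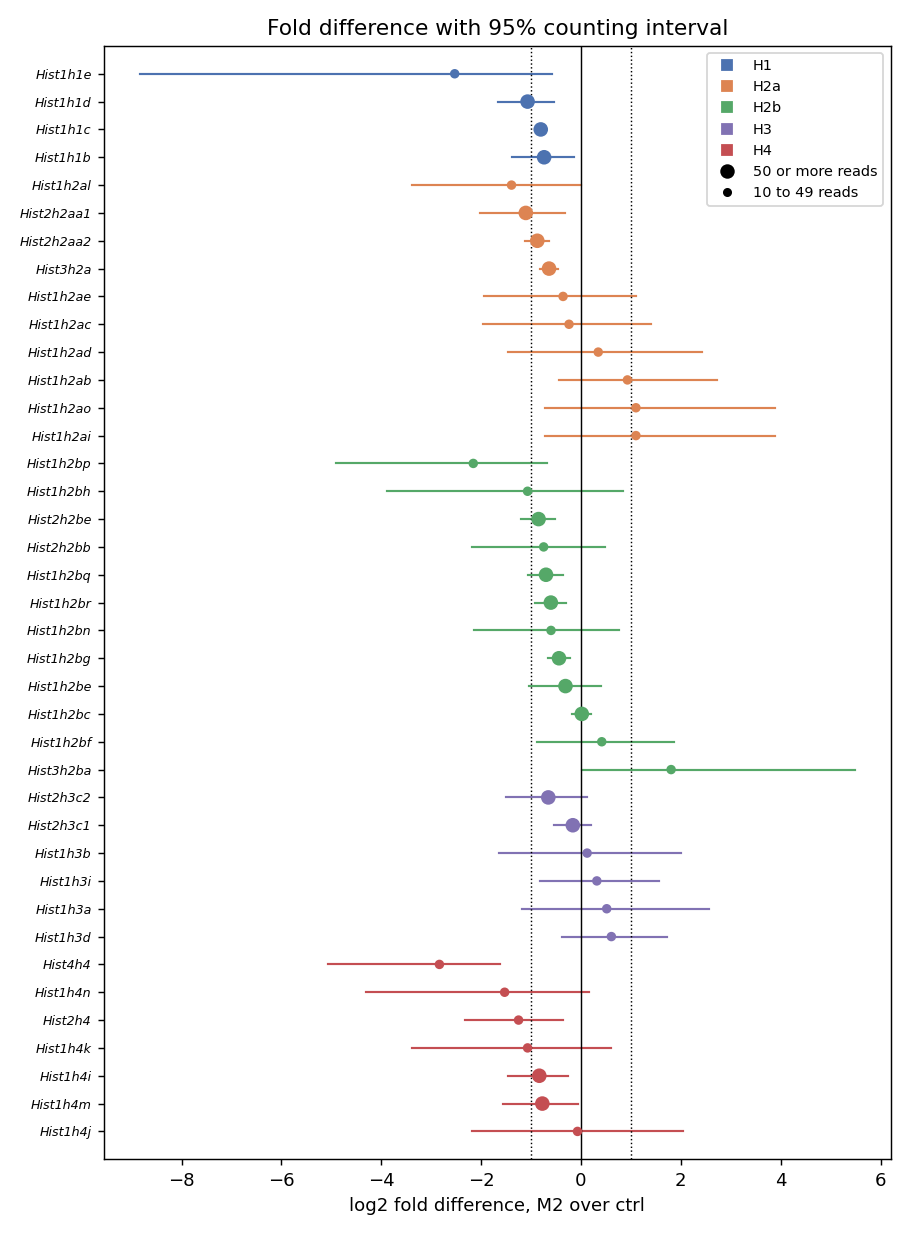
Log2 fold difference, M2 over ctrl, of the 39 clustered histone genes with 10 or more reads, with the 95% counting interval as a bar. Large points have 50 or more reads and small points 10 to 49, and dotted lines mark 2-fold. The bars of 16 genes lie wholly below 0 and that of Hist3h2ba wholly above it, against 27.9% and 28.8% of all 19233 genes.

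Each H1 gene compared was lower in M2. Hist1h1c, with 6340 reads in ctrl and 3805 in M2, was 1.75-fold lower (log2 fold difference -0.81, 95% interval -0.86 to -0.75). Hist1h1d (chr13:23555087-23555830) had 85 and 42 reads, a difference of -1.07 (-1.66 to -0.54). Hist1h1b (chr13:21779883-21780625) had 61 and 38 reads, a difference of -0.74 (-1.38 to -0.14). Hist1h1e had 10 reads in ctrl against 1 in M2, and the interval of its log2 ratio ran from -8.83 to -0.58. All 4 intervals lay below 0. The H1 sum without Hist1h1c was 161 and 90 reads, a log2 ratio of -0.91 (-1.30 to -0.53), beside -0.81 with it. Of the 100-base stretches in the Hist1h1c transcript, 94.9% occur in no other gene, and for Hist1h1b all do.

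Among the H2a genes, the 3 with the highest levels were lower in M2 and the others scattered on both sides of 0. Hist3h2a (chr11:58954685-58956830) had 679 and 457 reads, a log2 fold difference of -0.64 (-0.81 to -0.47). Hist2h2aa2 (chr3:96239749-96240276) had 394 and 225 reads, a difference of -0.87 (-1.12 to -0.64), and Hist2h2aa1 (chr3:96245497-96246082) had 40 and 19 reads, a difference of -1.10 (-2.01 to -0.32). The split of reads between Hist2h2aa1 and Hist2h2aa2 is uncertain, since none of their 100-base stretches is found in only 1 gene. Hist2h2aa2 also lies wholly within Gm20632 on the opposite strand (727 and 410 reads), and Hist3h2a shares 708 bases with Trim17 on the same strand (415 and 300 reads). The use of strand and the treatment of overlaps in the counting are not given in the sources used here. Hist2h3c1 kept 126 and 118 reads although it lies wholly within Gm20634 on the same strand. Gm44341, which overlaps Hist1h2al on the opposite strand, had 13 and 5 reads beside 14 and 5. Overlapping genes may thus hold the same reads, which cannot be told apart, and the counts of Hist3h2a may include reads of Trim17. The pseudogene Hist1h2al had 14 and 5 reads, a difference of -1.39 (-3.38 to 0.00). Hist1h2ai and Hist1h2ao each had 3 reads in ctrl against 8 in M2, and the interval of their log2 ratio ran from -0.71 to 3.89. Only 11.6% and 7.35% of their 100-base stretches are found in no other gene. The 17 H2a members under a level of 1 together had 59 and 65 reads, a log2 ratio of 0.07 (-0.46 to 0.60), whereas the H2a sum over all 20 members was 1172 and 766 reads, a ratio of -0.68 (-0.82 to -0.55).

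The H2b genes did not move together. Hist1h2bc (chr13:23684199-23692488), the H2b gene with the most reads, had 441 reads in ctrl against 468 in M2, which is a log2 fold difference of 0.02 (-0.17 to 0.21). Hist1h2bg (chr13:23571408-23571884) had 405 and 313 reads, a difference of -0.44 (-0.66 to -0.22). These intervals, which cover counting error only, do not overlap, although the genes lie in the same cluster and had similar levels. Of their 100-base stretches, 74.6% (Hist1h2bc) and 55.1% (Hist1h2bg) are found in no other gene. Hist2h2be (chr3:96221119-96223738), all of whose 100-base stretches are its own, had 193 and 112 reads, a difference of -0.85 (-1.20 to -0.51). Hist1h2br (222 and 153 reads) and Hist1h2bq (174 and 112 reads) had differences of -0.60 (-0.91 to -0.30) and -0.70 (-1.06 to -0.35), but only 13.6% and 5.16% of their stretches are found in no other gene. Hist1h2be, with 38 and 32 reads, had a difference of -0.31 (-1.04 to 0.40). At low counts, Hist1h2bp had 16 and 3 reads (interval of the log2 ratio -4.91 to -0.68), Hist1h2bh had 7 and 3 (-3.87 to 0.84), and Hist3h2ba had 2 and 10 (0.02 to 5.48). The H2b sum was 1546 and 1256 reads, a ratio of -0.37 (-0.48 to -0.26), and without Hist1h2bc it was -0.56 (-0.69 to -0.42).

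For H3 no difference was detectable at this depth. The sum over its 12 members was 222 reads in ctrl against 212 in M2, a log2 ratio of -0.14 (-0.41 to 0.14). Hist2h3c1 (chr3:96246685-96248504) held more of these reads than the other members together, with 126 and 118 reads and a difference of -0.16 (-0.54 to 0.21). It lies within Gm20634 on the same strand, and none of its 100-base stretches is its own. Hist2h3c2 (chr3:96238108-96239127) had 35 and 23 reads, a difference of -0.65 (-1.50 to 0.12). Hist1h3d (14 and 23 reads), Hist1h3i (12 and 16), Hist1h3a (5 and 8) and Hist1h3b (6 and 7) had more reads in M2, with intervals that include 0.

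The H4 genes had the lowest ratio of the 5 types. Their sum was 216 reads in ctrl against 106 in M2, a log2 ratio of -1.10 (-1.45 to -0.75), and this interval does not overlap those of H2b and H3. It does overlap those of H1 (-0.87 to -0.75) and H2a (-0.82 to -0.55). When at least 1 CPM in both libraries was required, Hist1h4i alone was left of H4. The ratio of -0.85 under that filter is therefore that of a single gene, beside -0.81 for H1. Hist4h4 (chr6:136801553-136804415) had 33 reads in ctrl against 4 in M2, a difference of -2.83 (-5.07 to -1.62), the lowest value among the 39 members. Hist2h4 (chr3:96261682-96263311) had 33 and 14 reads, a difference of -1.25 (-2.32 to -0.36), and its 100-base stretches are all its own. Hist1h4i (chr13:22040636-22041362) had 67 and 39 reads, a difference of -0.83 (-1.46 to -0.26), and Hist1h4m had 43 and 26, a difference of -0.77 (-1.56 to -0.06). Hist1h4k had 9 and 4 reads, a difference of -1.07 (-3.39 to 0.60), and Hist1h4n had 10 and 3 (interval of the log2 ratio -4.31 to 0.15). The share of 100-base stretches found in no other gene is 11.9% for Hist1h4m, 19.3% for Hist1h4n and 35.7% for Hist1h4k. Hist1h4j had 5 reads in each library. The counts behind this type are small, and no H4 gene reached 100 reads in either library.

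**Figure D3:**
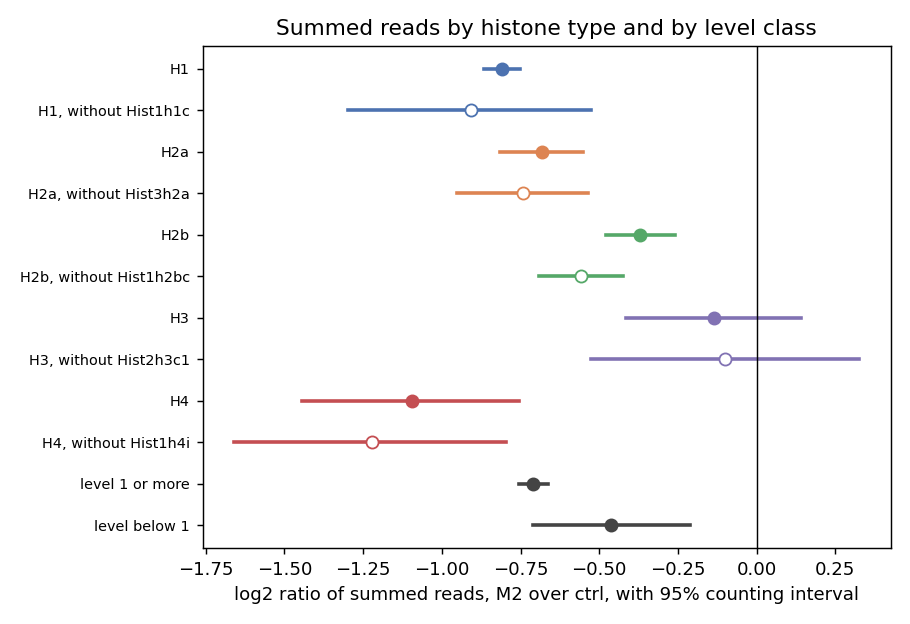
Log2 ratio of summed reads, M2 over ctrl, for the 5 histone types with and without the member with the most reads (open circles), and for members with a mean level of at least 1 or below 1 CPM per kilobase. Bars are 95% counting intervals. The H4 bar lies wholly below those of H2b and H3, and only the H3 bars cross 0.

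To ask whether the difference was tied to polyadenylated transcripts, the members were divided by level, since a poly(A)-primed library would list such transcripts higher. A mean level of at least 1 was found for 18 members, with 9346 and 5998 reads and a log2 ratio of -0.71 (-0.76 to -0.66), or -0.52 (-0.60 to -0.44) without Hist1h1c. The 52 members below 1 had 311 and 237 reads, a ratio of -0.46 (-0.71 to -0.21). The intervals of the 52 lower members and of the higher ones without Hist1h1c overlap, so the classes were not separated at this depth. Of the 18 members in the higher class, 15 had a value below 0, against 50.3% of all genes. Most of the 18 are also among the members with 50 or more reads described above.

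A second division used the annotated 3′ end. In 10 members the counted exon runs 100 or more bases past the stem-loop, and 7 of these transcripts have AATAAA or ATTAAA, the letters of a polyadenylation signal, in their last 40 bases. A further 5 members, all of H2b (Hist1h2bc, Hist1h2be, Hist1h2bp, Hist1h2bq and Hist1h2br), are counted over several exon blocks, and 4 of them have the letters. In 31 members the exon ends less than 100 bases after the stem-loop, or before it in Hist1h1a, Hist1h2bh and Hist1h2bm, and 3 have the letters. So do 3 of the 24 in whose annotated transcript no stem-loop was found, which may end short of one. The median level was 0.767 in the first group, 2.31 in the second, 0.372 in the third and 0.227 in the fourth, yet the ranges overlap widely. Hist1h2bg and Hist2h2aa2 have high levels although their exons end close to the stem-loop. The extended members (the first and second groups) had 8216 and 5244 reads, a log2 ratio of -0.72 (-0.77 to -0.67), or -0.45 (-0.55 to -0.35) without Hist1h1c. Taken apart, the first group had a ratio of -0.78 (-0.83 to -0.73) and the second of -0.28 (-0.42 to -0.14). Hist1h1c held 86.6% of the first group's ctrl reads. The 31 members that end close to the stem-loop had 1094 and 765 reads, a ratio of -0.59 (-0.72 to -0.45). The fourth group had 347 and 226 reads, a ratio of -0.69 (-0.94 to -0.44). By hand, 7 members were listed as polyadenylated in other work, which was not checked here (Hist1h1c, Hist1h2bc, Hist1h2be, Hist2h2be, Hist2h2aa1, Hist3h2a and Hist4h4). Hist2h2aa1 is in the third group, and the letters were found neither for it nor for Hist1h2bc. Of the 7, 6 had values below 0, against 50.3% of all genes. Their sum was 7764 and 4897 reads, a ratio of -0.73 (-0.79 to -0.68). Without Hist1h1c it was 1424 and 1092 reads, a ratio of -0.45 (-0.57 to -0.34).

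**Figure D4:**
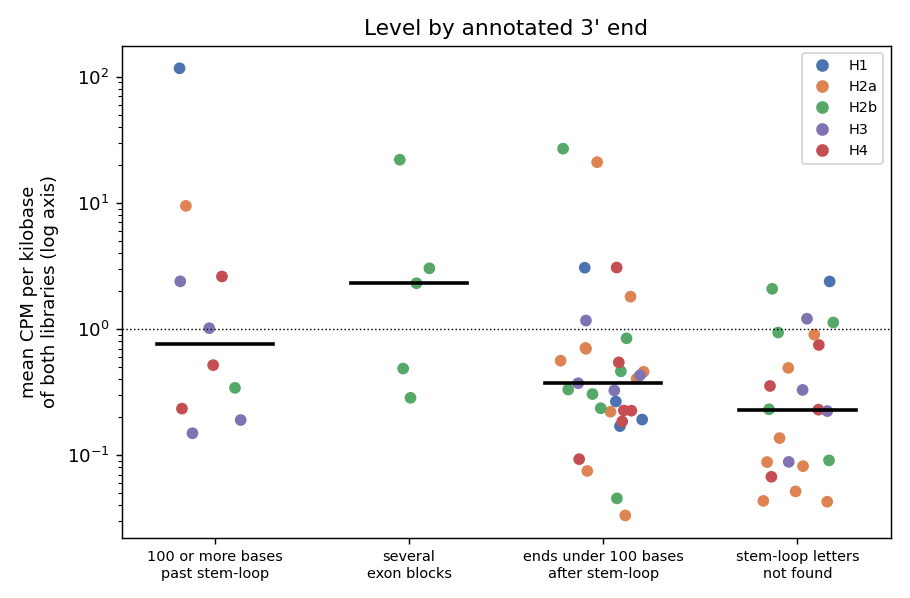
Mean level of both libraries, in CPM per kilobase on a log axis, of the clustered histone genes with at least 1 read, by what the annotation shows at the 3′ end. Points are genes coloured by histone type, black bars are medians over all members of a group, and the dotted line marks a level of 1. The medians are 0.767, 2.31, 0.372 and 0.227 from left to right, and each group spans at least a 10-fold range.

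Many H2a and H2b genes form divergent pairs whose starts face each other, and in some pairs the partners were listed at unequal levels. In 14 pairs the starts are 172 to 305 bases apart. Hist1h2bg, with 405 and 313 reads, starts 286 bases from Hist1h2ae, which had 10 and 8, so that the level of Hist1h2bg was 39.1 times that of its partner in ctrl and 37.7 times in M2. Hist1h2bc, with 441 and 468 reads, starts 274 bases from Hist1h2ac, which had 8 and 7, a ratio of levels of 35.7 and 43.2. Hist3h2a, with 679 and 457 reads, faces Hist3h2bb-ps across 172 bases, which had 4 and 2. Hist2h2be, with 193 and 112 reads, faces Hist2h2ac, which had 0 and 1. The partner with most reads was of H2b type in 3 of these 4 pairs. These 4 pairs were picked after their values were seen. Hist1h2br, with 222 and 153 reads, faces Hist1h2ap, which had 3 and 3, a ratio of levels of 16.1 and 11.1. Hist1h2bq, with 174 and 112 reads, faces Hist1h2ao, which had 3 and 8. The level of Hist1h2ao was 0.0796 times that of Hist1h2bq in ctrl and 0.330 times in M2. Few of the sequence stretches of Hist1h2br and Hist1h2bq are found in no other gene. The remaining pairs were nearer in level or had too few reads to compare. Hist1h2bf had 9 and 13 reads and its partner Hist1h2ad 5 and 7, and Hist1h2ba and Hist1h2aa were both at 0.

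Promoters of 62 of the 70 members were matched in RefSeq (GRCm38.p6) by symbol or synonym, each as a window of 300 bases that spans the annotated start, and 3 motifs were searched on both strands. The pair Hist1h2ae and Hist1h2bg shares its window in part, so windows of divergent partners are not independent. CCAAT was found in 53 of the 62 members and in 37.4% of all 32851 promoters. All matched H1, H2a, H2b and H3 members had it, whereas 3 of 12 H4 members did. TATAAA was found in 35 of 62 members and in 13.6% of all promoters. The octamer ATTTGCAT, which the factor Pou2f1 can bind, was found in 7 of 18 H2a and 6 of 16 H2b promoters, in no matched member of the other types, and in 1.74% of all promoters. The promoters of Hist1h2bg (chr13:23571150-23571449, plus strand), the highest H2b gene, and of Hist1h1c (chr13:23738557-23738856, plus strand), the highest member, are shown with these letters, or their reverse complement, in capitals.
Hist1h2bg: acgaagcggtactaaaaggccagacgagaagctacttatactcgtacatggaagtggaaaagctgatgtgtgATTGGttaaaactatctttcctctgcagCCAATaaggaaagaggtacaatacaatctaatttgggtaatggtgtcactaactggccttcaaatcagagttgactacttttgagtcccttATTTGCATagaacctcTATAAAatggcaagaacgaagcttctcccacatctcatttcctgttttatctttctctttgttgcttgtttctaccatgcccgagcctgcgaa
Hist1h1c: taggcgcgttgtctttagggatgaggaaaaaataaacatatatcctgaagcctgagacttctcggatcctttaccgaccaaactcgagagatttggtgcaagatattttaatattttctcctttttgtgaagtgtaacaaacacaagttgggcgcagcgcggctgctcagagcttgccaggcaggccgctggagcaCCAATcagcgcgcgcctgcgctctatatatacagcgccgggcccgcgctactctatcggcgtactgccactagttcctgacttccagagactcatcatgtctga
Hist1h2bg thus carries 2 CCAAT matches, 1 octamer and 1 TATAAA, and Hist1h1c carries 1 CCAAT match. A match is a description of letters, and binding was not measured.

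Other genes of histone supply were read beside the clustered ones. Of 16 replacement variants outside the clusters, 12 had 10 or more reads, with a median log2 fold difference of 0.18. Cenpa, the centromeric H3 variant, was the only one at least 2-fold apart, with 402 reads in ctrl and 916 in M2 (1.12, 95% interval 0.95 to 1.29). H2afz, which encodes H2A.Z, had 1867 and 3546 reads (0.86, 0.77 to 0.94), H2afy had 2510 and 3049 (0.21, 0.13 to 0.29), and H1f0, a linker histone of slowly dividing cells, had 7612 and 9116 (0.19, 0.15 to 0.24). In the other direction, the H3.3 genes H3f3b (40244 and 29663 reads) and H3f3a (10766 and 7803) had differences of -0.51 (-0.53 to -0.49) and -0.53 (-0.58 to -0.49). H3f3b alone had more reads than all 70 clustered genes together in each library.

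Of 16 genes of histone mRNA processing and transcription, none was 2-fold apart and the median was 0.08. Slbp had 791 and 1116 reads, a difference of 0.43 (0.29 to 0.56), and Npat, the coactivator of clustered histone genes, had 656 and 718, a difference of 0.06 (-0.09 to 0.22). Ybx1 (0.39), Cstf2 (0.13), Cpsf3 (0.06) and Cpsf2 (0.39) had the most reads of this list. None of 20 histone chaperone and supply genes was 2-fold apart either, with a median of 0.18. Those with the most reads were Nap1l1 (0.28), Atrx (0.07), Ssrp1 (0.19) and Nasp (0.21).

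Most genes of S phase had values above 0, where most clustered histone genes had values below 0. A value above 0 was found for 29 of the 31 S phase genes compared, against 49.7% of all genes, and their median was 0.43. Ccne1, which encodes cyclin E1, was the only one at least 2-fold apart, with 146 reads in ctrl and 441 in M2 (1.52, 1.25 to 1.81). Of those with the most reads, Rrm1 (ribonucleotide reductase) had 2894 and 3926 reads (0.37, 0.30 to 0.44), Mcm7 (replicative helicase) 1932 and 2579 (0.35, 0.26 to 0.43), Lig1 1981 and 2423 (0.22, 0.14 to 0.31) and Pcna 1913 and 2378 (0.24, 0.16 to 0.33). No test of a difference between lists was made.

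**Figure D5:**
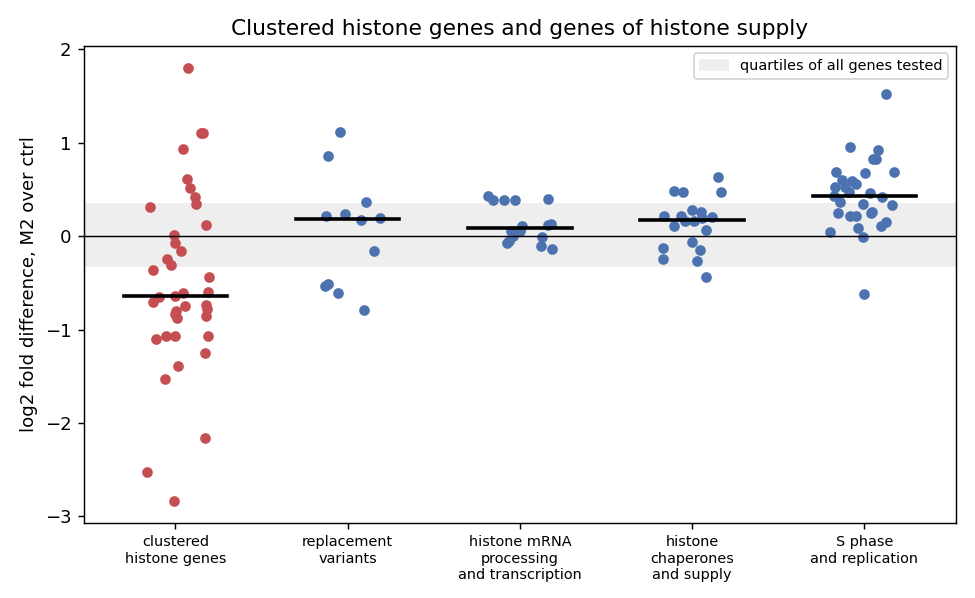
Log2 fold difference, M2 over ctrl, of the 39 clustered histone genes (red) and of 4 lists of other genes (blue), all with 10 or more reads. Points are genes, black bars are list medians, and the grey band spans the quartiles of all 19233 genes, -0.32 to 0.35. The medians are -0.64 for the clustered genes, 0.18 for replacement variants, 0.08 for histone mRNA processing, 0.18 for chaperones and 0.43 for S phase.

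The labelled cell type was checked by its markers. The 5 basal markers Krt5, Krt14, Trp63, Acta2 and Itga6 together had 179060 reads in ctrl against 200565 in M2, and the 5 luminal markers had 67102 and 65144. Single basal markers went different ways, with log2 fold differences of 0.50 (Krt5), 0.45 (Itga6), 0.15 (Trp63), 0.04 (Acta2) and -0.32 (Krt14). Some single luminal markers differed more than the luminal sum: Elf5, with 5704 and 2776 reads, had a log2 fold difference of -1.11, Krt19 of -0.78 and Krt8 of 0.21. Gata3 (-0.11) and Krt18 (-0.05) did not. Of 8 macrophage markers, Tyrobp, Fcer1g, Adgre1 and Ptprc were at 0 in both libraries, and the list had 272 and 260 reads, nearly all of Cd68 and Csf1r. The 5 fibroblast markers had 8790 reads in ctrl against 3809 in M2, a log2 ratio of -1.28, with Col1a2 and Col3a1 at least 2-fold lower and Dcn at least 2-fold higher in M2. The part of fibroblast or luminal cells in the lower histone reads of M2 was not tested.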

How the data were processed

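RNA of 1 ctrl and 1 M2 library was sequenced, and groups were taken from the sample titles. The authors deposited raw counts of reads per gene, with no normalization. Build GRCm38 (mm10) is named in the submitters' processing notes. The aligner, counter, use of strand and treatment of reads that match several genes are not given in the sources used here. Gene lengths and coordinates are those of the count table. Library sizes were scaled by TMM in edgeR 4.0.16 under R 4.3.3 (factors 1.02 for ctrl and 0.980 for M2). Genes with at least 10 reads in all were compared, with a pseudocount of 1. Intervals of ratios are 95% Clopper-Pearson intervals (scipy 1.17.1), cover counting error only, and were computed from reads without the pseudocount. With 1 library per group no test between conditions was made. Exact binomial p-values (two-sided) and those of edgeR's exactTest with an assumed coefficient of variation were adjusted after Benjamini and Hochberg over all 19233 genes. Named were all members with 50 or more reads, those with 10 to 49 reads at least 2-fold apart, and of each pathway list the 4 with the most reads, those at least 2-fold apart, and Slbp, Npat, H2afz, H3f3b and H1f0. Other members named were chosen after their values were seen, as were the markers given singly. The members and lists were chosen with earlier results of these data known. The functions were tested on simulated data. The series text speaks of a microarray, whereas the values are read counts.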

Additional observations from a re-analysis of the deposited data

How the results depend on the processing

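No paired analysis was possible because ctrl and M2 are 1 library each, and for the same reason no library could be left out. Of the members, 3 were at least 2-fold higher in M2 and 10 lower. The numbers were 1 and 5 with a pseudocount of 5, 8 and 18 from 1 read on, 0 and 1 with at least 1 CPM in both libraries, 0 and 3 at 4-fold, 0 and 6 with the binomial test, 0 and 1 with an assumed coefficient of variation of 0.2, and 0 and 0 with 0.4. By intervals wholly on either side, chosen after seeing the data, they were 1 and 16, against 5535 and 5374 of all genes. For all genes (1832 and 1504) they were 3174 and 4001 from 1 read on, 797 and 583 with 1 CPM in both, 616 and 494 at 4-fold, 964 and 691 with 0.2, and 175 and 130 with 0.4. The 2 list genes at least 2-fold higher became 0 at 4-fold, 1 with 0.2 and 0 with 0.4. Scaling by library total gave -0.87 for the H1 sum and -0.77 for members with a level of at least 1. Without the member with the most reads these were -0.91 and -0.52, and H2b was -0.56. Medians of members in place of sums were -0.94 for H1, -0.30 for H2a, -0.60 for H2b and, with the sign turned, 0.22 for H3. Of 135 values for 27 named members, 134 moved by less than their counting interval, and Hist1h1c moved to -0.86 with library totals. The depth limits members under 10 reads and the H3 and H4 sums.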
